A study of Drosophila melanogaster with 7 samples.

Results

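Neurons respond to transmitters through receptors and carry signals through ion channels, and 60 genes of these kinds in Drosophila melanogaster were followed here by RNA sequencing of larval nervous systems with reduced ISWI, the ATPase of a family of nucleosome remodelling complexes. They were taken from a list of 41 neurotransmitter receptor genes and 19 genes for ion channels and their partners. Most of the 19 are for voltage-gated channels, and 1 is for a channel of the DEG/ENaC family. A gene was described when its symbol stood in the authors' deposited comparison, which was the case for 13 of the 60, in a table of 2366 genes. The other 47 are absent from that table.

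The 4 knockdown libraries came from larvae with elav-GAL4 driving a UAS hairpin against ISWI (genotype elav-GAL4>UAS-ISWI RNAi). The 3 controls were larvae carrying the driver alone (elav-GAL4; +), which the header of the table calls attp2, so all groups carried the driver. Each library pooled 40 dissected central brains with ventral nerve cords, in the middle of the third instar, after 4 days of growth from egg lay at 25 °C. The elav driver acts in neurons, so transcripts of other cells in the same pools were measured with them. Each group is 1 genotype, and the labels give no sex. In bulk tissue, fewer cells of a type and less RNA per cell cannot be told apart.

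Transmitter receptors fall into ionotropic receptors, which are themselves ion channels opened by the transmitter, and G protein-coupled receptors, which act through second messengers. In the fly brain acetylcholine is the main fast excitatory transmitter, GABA the main inhibitory one, and glutamate is excitatory at the neuromuscular junction and often inhibitory centrally. Sodium, calcium and potassium channels then shape the action potential and transmitter release.

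The authors' deposited table lists genes with an unadjusted p under 0.1 and gives for each a mean normalised count over the 7 libraries, a log2 fold change of knockdown over control, a p and an adjusted p. No values of single libraries were used here. The depth of each is therefore unknown, and replicate spread is seen only as far as the authors' p holds it. Calls were made at an adjusted p under 0.05. Each log2 fold change and its p, read as that of a Wald test, imply a standard error, and the 95% intervals below use it. In the authors' deposited table Iswi itself fell by 2.03 (log2; adjusted p 5.14e-230, DESeq2), to 24.6% of the control level.

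Of the 60 receptor and channel genes, 13 (21.7%) were listed in the authors' deposited table, against 21.5% of the 10775 genes tested, a number worked out from its adjusted p-values. How many of the 60 were tested is not known here. The share listed was thus close to that of all tested genes. At an unadjusted p under 0.05 there were 8 of the 60 genes in the authors' deposited table, against 14.7% of all tested genes. Of the 60 genes 1 was lower at an adjusted p under 0.05, the channel gene rpk, and 0 were higher, against 2.59% lower and 2.06% higher among all tested genes of the authors' deposited table (4.65% in either direction). Receptors had 9 of 41 genes listed and channels 4 of 19. Among those listed, 11 had a positive fold change and 2, rpk and nAChRalpha4, a negative one. Over all tested rows, 1104 were positive and 1208 negative by the authors' deposited table, so 10.2% of all tested genes were listed as higher and 11.2% as lower. The median log2 fold change of the 13 was 0.18, against -0.11 over all tested rows of the authors' deposited table. Both medians cover only genes with p under 0.1 and depend on the balance of signs. Positive values had a median of 0.18 among the 13 and 0.37 among all tested rows, where negative values had one of -0.21.

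**Figure D1:**
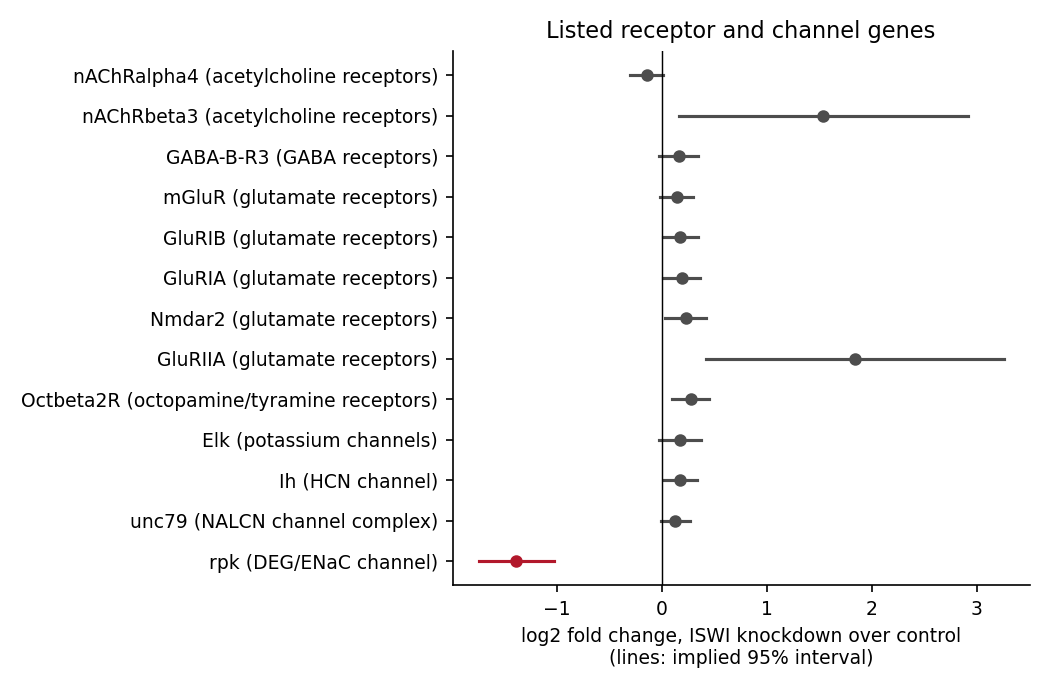
Log2 fold change, knockdown over control (horizontal axis) for the 13 listed receptor and channel genes, with lines for the implied 95% interval and red for an adjusted p under 0.05. Only rpk, at -1.39, is red, and 9 of the other 12 genes lie between 0.13 and 0.27, apart from GluRIIA at 1.84, nAChRbeta3 at 1.54 and nAChRalpha4 at -0.14.

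rpk (ripped pocket, FBgn0022981) encodes a subunit of the DEG/ENaC family, sodium channels that are not gated by voltage. It lies on chromosome 3R, 4645981 to 4648884, build BDGP6, plus strand. Its mean normalised count was 125 and its log2 fold change was -1.39 in the authors' deposited table (adjusted p 1.42e-11, DESeq2), and it had an implied standard error of 0.18. That is 38.3% of the control level, with an implied 95% interval of 29.8% to 49.1%. Split between the groups by that fold, the mean corresponds to about 73.9 normalised counts in knockdown and 193 in control libraries. In order of p, rpk was number 29 of the 2366 genes in the authors' deposited table.

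The standard error of rpk was ordinary among listed genes of its abundance. Among 186 other listed genes with a mean count within 1.5 times that of rpk, the median implied standard error was also 0.18, and 110 of them were positive. Of the 2536 exonic bases that the table gives for rpk, 1531 lie over exons of the antisense RNA gene asRNA:CR44155, by the reference annotation. The library kit keeps strand, but the sources used here do not state whether counting used it. Without it, reads of rpk and of this antisense gene cannot be told apart. Within 20 kb of rpk, the authors' deposited table lists Karybeta3, Dlip2, MED31 and CG9775, with log2 fold changes of -0.10, -0.32, -0.17 and -0.16. All 4 neighbours were negative, and none was called.

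The rest of the DEG/ENaC family is made up of the pickpocket genes and Nach. Of 30 such genes 4 were listed (13.3%, against 21.5% of all tested genes), 2 positive and 2 negative. Only ppk13 of the 30 was called, against 4.65% of all tested genes. ppk13 rose by 1.27 (log2; adjusted p 0.00409, DESeq2) in the authors' deposited table. ppk8 had a log2 fold change of 1.34 in the authors' deposited table (mean count 6.09, adjusted p 0.465, DESeq2). ppk28, which acts in water taste, and ppk29 stood at -0.30 and -0.25 in the authors' deposited table, and neither was called. rpk is also known from gonads, so germline genes were set beside it. By the authors' deposited table, of 7 germline markers a total of 5 were listed, against 21.5% of all tested genes. Among the listed markers 3 were positive and 2 negative, with a summed mean count of 233 over both groups. AGO3, of the piRNA pathway, fell by 1.13 and aub stood at -0.40, while bgcn stood at 0.67 and zpg at 1.55, in the authors' deposited table. The part of other cells in the value of rpk was not tested.

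Of the families on the list, glutamate receptors had the most genes listed, 5 of 9, and all 5 were positive. They cover the AMPA/kainate-type subunits GluRIA and GluRIB, the muscle subunit GluRIIA, the NMDA-type subunit Nmdar2 and the metabotropic receptor mGluR. None was called. GluRIIB, GluRIIC, GluClalpha (the glutamate-gated chloride channel) and Nmdar1, which forms NMDA receptors with Nmdar2, were not listed. Of all tested genes, 21.5% were listed and 10.2% were listed as higher. Outside the list, the kainate-type subunit CG11155 stood at -0.16 (mean count 7397) in the authors' deposited table. Ekar, also a kainate-type subunit, stood at 0.54 there, and mtt, which is related to metabotropic glutamate receptors, at 0.18.

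**Figure D2:**
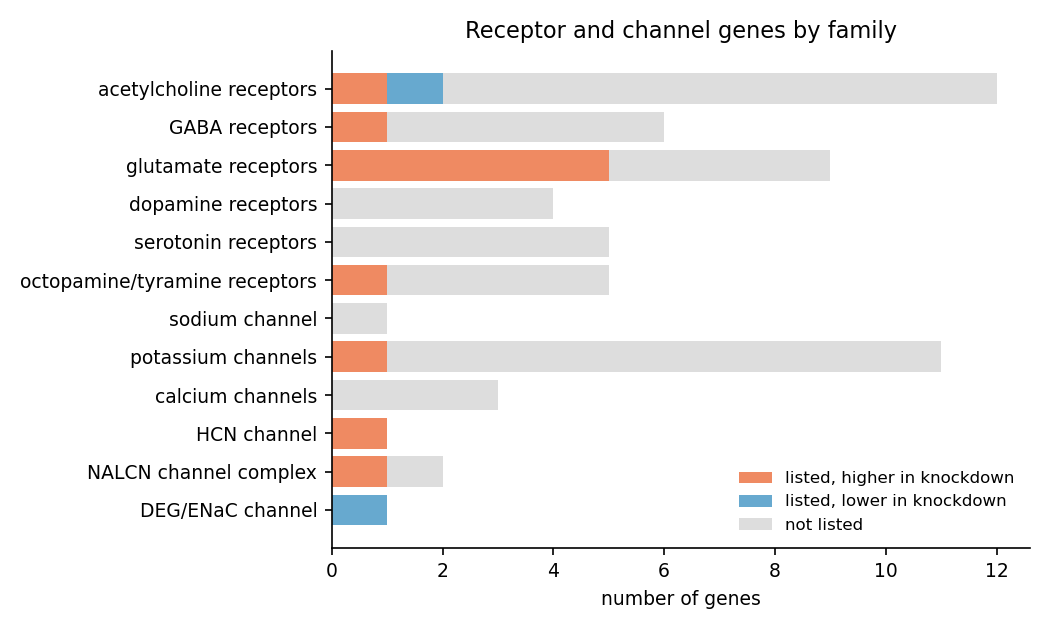
Number of genes (horizontal axis) in each receptor or channel family, split into those listed with a higher level in knockdown, listed with a lower level, and not listed in the authors' table. Of the glutamate receptors followed here 5 of 9 are listed, all higher, while 0 of 4 dopamine and 0 of 5 serotonin receptors are listed.

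GluRIA (FBgn0004619, chromosome 3L, 6624032 to 6635059) had a mean count of 920 and a log2 fold change of 0.19 in the authors' deposited table (95% interval 0.01 to 0.37, adjusted p 0.287, DESeq2). GluRIB (FBgn0264000, chromosome 3L, 9251978 to 9288522) had a mean count of 1108 and a log2 fold change of 0.18 in the authors' deposited table (0.01 to 0.34, adjusted p 0.286, DESeq2). Both subunits thus stood at 114% and 113% of control, with intervals that overlap almost wholly and a lower end just above 0.

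Nmdar2 (FBgn0053513, chromosome X, 1483625 to 1507809) had a mean count of 1723 and a log2 fold change of 0.23 in the authors' deposited table (0.03 to 0.42, adjusted p 0.242, DESeq2). Its whole span lies within the gene inc (insomniac, an adaptor of a ubiquitin ligase with a role in sleep) on the opposite strand, with 0 bases of exon in common. inc was listed too, at 0.17 in the authors' deposited table (adjusted p 0.146, DESeq2). Unspliced reads of inc and reads of Nmdar2 could be shared if strand was not used. The implied standard error of Nmdar2 was 1.38 times the median of listed genes of like abundance.

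mGluR (FBgn0019985, chromosome 4, 936819 to 949441) encodes a metabotropic glutamate receptor. Its mean count was 2620 and its log2 fold change 0.14 in the authors' deposited table (-0.02 to 0.30, adjusted p 0.424, DESeq2). The other 28 listed genes of chromosome 4 counted 8 with a higher level in knockdown and 20 with a lower one, by the authors' deposited table.

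GluRIIA (FBgn0004620, chromosome 2L, 5555072 to 5558994) is a subunit of the receptor in body wall muscle at the neuromuscular junction. It had the largest log2 fold change of the 13 in the authors' deposited table, 1.84 (0.43 to 3.26, adjusted p 0.141, DESeq2). Its mean normalised count was 9.22 over all libraries in the authors' deposited table, or about 13.3 in knockdown and 3.72 in control libraries when split by the fold. At that level the median implied standard error of 96 listed genes of like abundance was 0.72, the same as that of GluRIIA, and 78.1% of them were positive. By the authors' deposited table, of 11 muscle markers a total of 7 were listed, and all 7 were positive, from 0.28 to 0.71. Those called higher numbered 3. Of all tested genes, 21.5% were listed, 10.2% were listed as higher and 2.06% were called higher. bt, Unc-89 and TpnC47D rose by 0.30, 0.64 and 0.69, and sls stood at 0.28, in the authors' deposited table. Together the 7 had a summed mean count of 2088 over both groups. The muscle markers' part in the value of GluRIIA was not tested.

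Acetylcholine receptors had 2 of 12 genes listed, with opposite signs. nAChRalpha4 (FBgn0266347, chromosome 3L, 23206669 to 23287448), a nicotinic alpha subunit, had a mean count of 2673 and a log2 fold change of -0.14 in the authors' deposited table (-0.30 to 0.02, adjusted p 0.416, DESeq2). Among the 41 receptor genes followed here, it was the only one listed with a negative value. It lies in the centromere-proximal part of 3L. The other genes listed there, from 23 Mb on, counted 2 with a higher and 22 with a lower level by the authors' deposited table, a limit chosen after values were seen. With an exon overlap of 247 bases, nAChRalpha4 also meets the antisense gene lncRNA:CR46475.

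nAChRbeta3 (FBgn0031261, chromosome 2L, 545129 to 547096), a divergent nicotinic beta subunit, had a mean count of 78.8 and a log2 fold change of 1.54 in the authors' deposited table (0.17 to 2.92, adjusted p 0.255, DESeq2). Its implied standard error of 0.70 was 2.95 times the median of 149 listed genes of like abundance, and larger than that of 98.7% of them. The authors' p thus implies a wider spread for this gene than for most listed genes at its level. Genes with a p of at least 0.1, whose errors are not known here, are not among them. All 1532 exonic bases that the table gives for nAChRbeta3 lie over exons of Ets21C, a transcription factor gene on the opposite strand, so reads of both genes cannot be told apart unless strand was used. Ets21C itself was not listed. Of the 149 listed genes of like abundance, 69.8% were positive. By the authors' deposited table, of 8 hemocyte markers a total of 5 were listed, and all 5 were positive, from 0.96 to 1.54. Those called higher numbered 2. Of all tested genes, 21.5% were listed, 10.2% were listed as higher and 2.06% were called higher. NimC1 and Pxn rose by 1.01 and 1.25 there, while eater and srp stood at 0.96 and 1.36, by the authors' deposited table. The 5 had a summed mean count of 2920 over both groups, of which Hml alone made up 2069. Hml stood at 1.54 in the authors' deposited table and was not called (adjusted p 0.166, DESeq2). The hemocyte markers' part in the value of nAChRbeta3 was not tested.

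**Figure D3:**
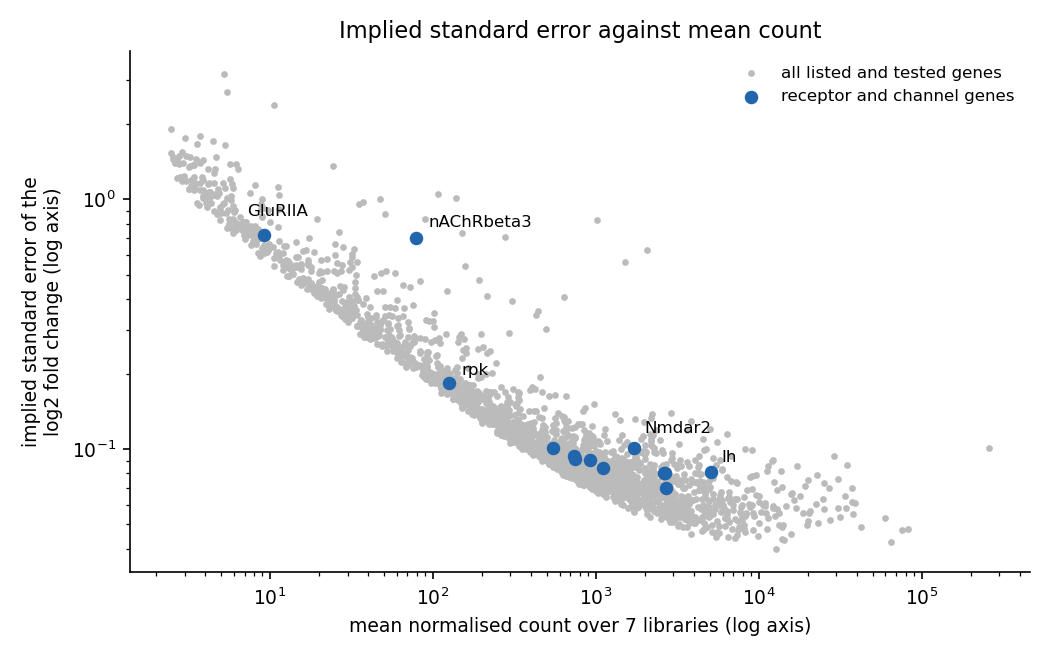
Implied standard error of the log2 fold change (vertical, log axis) against mean normalised count (horizontal, log axis) for the listed and tested genes in grey and the 13 receptor and channel genes in blue. nAChRbeta3, at 0.70, lies well above listed genes of like abundance, whose median is 0.24, while GluRIIA and rpk lie close to the medians of listed genes at their mean counts.

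The other 8 nicotinic subunits (nAChRalpha1, nAChRalpha2, nAChRalpha3, nAChRalpha5, nAChRalpha6, nAChRalpha7, nAChRbeta1 and nAChRbeta2) and the muscarinic receptors mAChR-A and mAChR-B were not listed. Among GABA receptors, the chloride channel subunits Rdl, Grd and Lcch3 and the metabotropic subunits GABA-B-R1 and GABA-B-R2 were not listed. GABA-B-R3 (FBgn0031275, chromosome 2L, 749945 to 762399), a further metabotropic subunit, had a mean count of 733 and a log2 fold change of 0.16 in the authors' deposited table (-0.02 to 0.34, adjusted p 0.445, DESeq2). Its neighbour at 5.55 kb, the amino acid transporter gene Eaat2, fell by 0.30 in the authors' deposited table (adjusted p 0.00533, DESeq2).

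Of the amine receptors, Octbeta2R stood closest to the threshold. Octopamine is the insect counterpart of noradrenaline, and Octbeta2R (FBgn0038063, chromosome 3R, 12550625 to 12595725) is one of its beta-adrenergic-like receptors. It had a mean count of 751 and a log2 fold change of 0.27 in the authors' deposited table (0.09 to 0.45), or 121% of control (107% to 137%). Its p of 0.00272 gave an adjusted p of 0.0557 (DESeq2) in the authors' deposited table, where the largest p called was 0.00230. No other octopamine or tyramine receptor of the list (Oamb, Octbeta1R, Octbeta3R and Oct-TyrR) was listed. The dopamine receptors Dop1R1, Dop1R2, Dop2R and DopEcR and the serotonin receptors 5-HT1A, 5-HT1B, 5-HT2A, 5-HT2B and 5-HT7 were all absent as well.

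Of 17 pore-forming channel genes 3 were listed (rpk, Ih and Elk), and of 2 genes for channel partners 1, unc79. Ih (FBgn0263397, chromosome 2R, 14276130 to 14300095) encodes the channel of the hyperpolarisation-activated cation current. It had the highest mean count of the 13, 5106, and a log2 fold change of 0.18 in the authors' deposited table (0.02 to 0.34, adjusted p 0.262, DESeq2). Listed genes of like abundance were positive in 25.2% of cases in the authors' deposited table. The gene tej (tejas, of the piRNA pathway), 0.008 kb from Ih, fell by 1.24 in the authors' deposited table (adjusted p 0.00462, DESeq2, mean count 30.1).

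unc79 (FBgn0038693, chromosome 3R, 19230764 to 19246130) encodes a large partner of na (narrow abdomen), the sodium leak channel, which was itself not listed. unc79 had a mean count of 2717 and a log2 fold change of 0.13 in the authors' deposited table (-0.01 to 0.27, adjusted p 0.383, DESeq2). Elk (FBgn0011589, chromosome 2R, 17873939 to 17926695), a potassium channel of the ether-a-go-go family, had a mean count of 544 and a log2 fold change of 0.17 in the authors' deposited table (-0.03 to 0.37, adjusted p 0.444, DESeq2). Both intervals include 0. Within its introns Elk holds 5 other genes, with 0 bases of exon in common. The exons of unc79 share 69 bases with the opposite-strand gene Polr2M, those of GluRIIA 66 with CG14017 on the same strand, and those of Octbeta2R hold the 100 bases of mir-284.

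The remaining potassium channel genes Sh, Shab, Shaw, Shal, slo, eag, sei, KCNQ and SK, with the Shaker partner Hk, were not listed. Nor were para, the voltage-gated sodium channel, or the calcium channels cac, which carries the current for transmitter release, Ca-alpha1D and Ca-alpha1T. A gene is absent when its p was at least 0.1 or when it was given no p. For these 47 genes, which of the 2 holds was not analysed here. The size of change that would be listed depends on abundance. With the median implied standard error of the listed genes in its class, a gene reached p under 0.1 at a log2 change of 0.99 for mean counts under 50. The change was 0.33 from 50 to 200, 0.17 from 200 to 1000, 0.12 from 1000 to 5000, and 0.10 from 5000 on. Errors of genes that were not listed are not known here, and the change they needed may have been larger. The mean counts of the 47 genes are not known here, so no limit can be set for each.

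**Figure D4:**
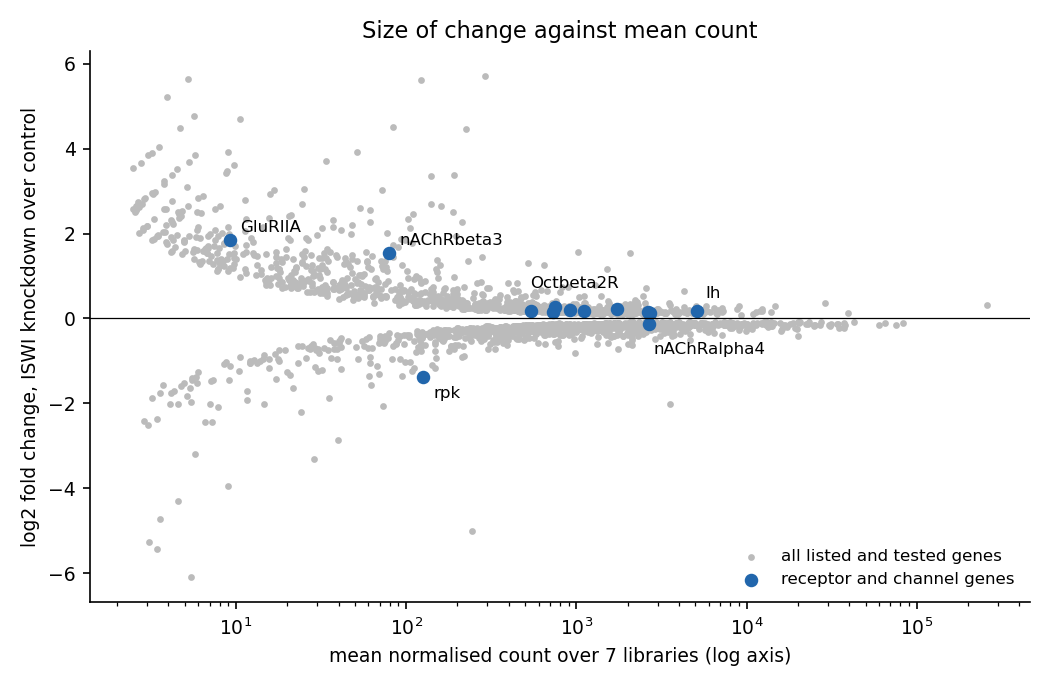
Log2 fold change, knockdown over control (vertical) against mean normalised count (horizontal, log axis) for the listed and tested genes in grey and the 13 receptor and channel genes in blue. In the empty band around 0, wide at low counts, no gene was listed, and 10 of the 13 genes lie along its edge at mean counts over 500.

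Per kb of exon, the listed genes spanned a wide range of levels in the authors' deposited table. nAChRalpha4 had 442 mean normalised counts per kb, mGluR 412 and Ih 402. unc79 (267), GluRIA (241), Nmdar2 (214) and GluRIB (154) followed in mean counts per kb. GABA-B-R3, Elk and Octbeta2R had 104, 102 and 99.8 mean counts per kb, nAChRbeta3 51.4, rpk 49.3 and GluRIIA 2.83. The table gives no error for a mean count, so the order of near neighbours, such as GABA-B-R3, Elk and Octbeta2R, has no test.

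Receptor and channel genes are long. By the reference annotation the 60 genes had a median genomic span of 25.1 kb, against 2.16 kb for all 13986 protein-coding genes, and 49 of the 60 spanned more than 10 kb. The 13 listed genes had a median span of 15.4 kb, and the 47 not listed 29.7 kb. The direction of listed genes moved with span in the authors' deposited table. Outside the list, 292 of 747 listed protein-coding genes of up to 2 kb were higher in knockdown (39.1%), and 440 of 1026 from 2 to 10 kb (42.9%). From 10 to 30 kb it was 172 of 253 (68.0%), and over 30 kb 88 of 121 (72.7%), in the authors' deposited table. Receptor and channel genes were positive in 6 of 6 cases from 10 to 30 kb and in 3 of 4 over 30 kb, where nAChRalpha4 was the exception.

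The same order held among listed genes whose mean count reached 500, at 18.2%, 31.0%, 58.2% and 72.8% higher in the 4 classes of span, from short to long. The 10 receptor and channel genes at such counts all span more than 10 kb, and 9 of the 10 were positive. The median log2 fold change of the 121 other listed genes over 30 kb was 0.18 in the authors' deposited table. That of the 13 was 0.18 too, but only 4 of the 13 span more than 30 kb, so the 2 medians cover unlike spans. The part of gene length in the direction of receptors and channels was not tested.

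**Figure D5:**
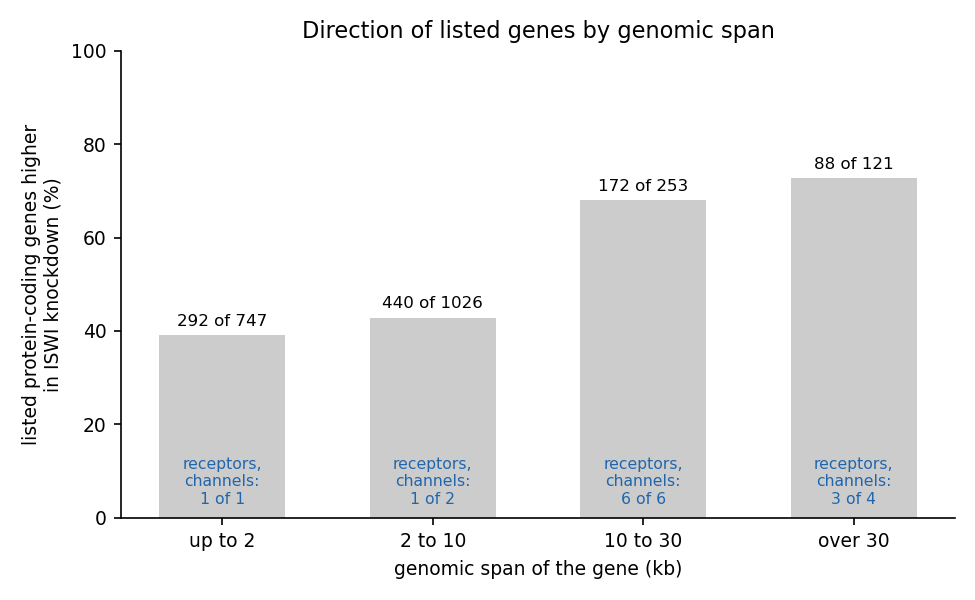
Share of listed protein-coding genes outside the receptor and channel list that were higher in ISWI knockdown (bars, percent, from 0), by genomic span in kb, with the counts above each bar and those of the receptor and channel genes in blue. The share is 39.1% up to 2 kb and 72.7% over 30 kb, and the 10 listed receptor and channel genes over 10 kb were positive in 9 cases.

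Within 20 kb of 7 of the 13 genes the authors' deposited table lists 19 other genes, of which 3 were higher and 16 lower. Nmdar2 alone accounts for 7 of the 19 and rpk for 4, so the count rests on few loci, and 52.2% of all tested rows of the authors' deposited table were lower. The other 6 genes had no listed neighbour at that distance.

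Other genes of transmission were counted in lists of the same kind. For comparison, 21.5% of all tested genes were listed and 4.65% were called. By the authors' deposited table, of 21 further receptor genes a total of 6 were listed, 5 positive and 1 negative. TyrRII, a tyramine receptor, rose by 0.65 (adjusted p 0.0192, DESeq2, mean count 92.5) by the authors' deposited table and was the only call among them. The kainate-type subunits CG11155 and Ekar stood at -0.16 and 0.54, and mtt (mangetout, related to metabotropic glutamate receptors) at 0.18, in the authors' deposited table. Of 42 further channel genes 7 were listed, 4 positive and 3 negative, with 0 calls. Among these, NaCP60E, a voltage-gated cation channel, stood at -0.21 in the authors' deposited table (mean count 4051), and the two-pore potassium channel gene CG10864 at 0.86, Tmc at 0.91 and CG42260 at 0.23.

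Of 15 TRP channel genes 2 were listed (13.3%, against 21.5% of all tested genes), and both were called, against 4.65% of all tested genes. pyx (pyrexia, a heat-sensing TRPA channel) rose by 0.74 in the authors' deposited table (adjusted p 5.89e-06, DESeq2, mean count 218), and TrpA1 by 0.78 (adjusted p 0.0285, mean count 92.4). Of 37 peptide receptor genes 6 were listed, 5 positive and 1 negative. The negative one, hec (hector), fell by 0.64 in the authors' deposited table (adjusted p 5.41e-05, DESeq2), while AstA-R1, AstA-R2 and SIFaR stood at 0.31, 0.36 and 0.32 without a call.

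On the sending side, genes of transmitter synthesis and transport had 6 of 23 listed, 2 positive and 4 negative. By the authors' deposited table prt and Eaat2 fell by 0.59 and 0.30 and Tdc1 rose by 1.33, and VGAT, the vesicular GABA transporter, stood at -0.16 with an adjusted p of 0.0917 (DESeq2). Of 26 genes of transmitter release 3 were listed. Cadps, which acts in dense core vesicle release and lies on chromosome 4, fell by 0.39 in the authors' deposited table (adjusted p 8.56e-08, DESeq2, mean count 7150), while Syx1A and Rop stood at 0.18 and -0.10. Of 13 receptor partner genes 3 were listed, Hasp, Nlg4 and Nlg2, at 0.13, 0.23 and 0.14 in the authors' deposited table, and 0 were called.

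Of 7 markers of neurons and 7 of glia 0 were listed, so none has a value in the authors' deposited table, and the labelled tissue could not be checked by their levels. Among all tested genes, 21.5% were listed and 4.65% were called. Of 6 neuroblast markers dpn was listed, at -0.19 in the authors' deposited table. Of 6 eye disc markers gl and lz were listed, at 0.94 and 1.14, and gl was called (adjusted p 0.00654, DESeq2), in the authors' deposited table.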

How the data were processed

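RNA was read from 7 libraries (4 ISWI knockdown, 3 control) in single reads (100 bases; per the labels' protocols). Per the submitters' processing notes, STAR 2.5.0b aligned them to BDGP6 and DESeq2 made the comparison. Counter and strand setting are not given in the sources used here. Per the file headers, the authors deposited a base mean, a signal that averages counts divided by size factors, with a log2 fold change, a p-value and an adjusted p-value per gene.

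The table ends at p under 0.1. Its adjusted p-values imply 10775 tests, and 54 rows with an adjusted p of 1 were left out of shares. Nothing was refitted. Standard errors were implied from fold change and p. On simulated tables made with Wald p-values, both these errors and the number of tests were recovered in 20 of 20, which checks the arithmetic and not whether the authors' p is that of a Wald test. Members were found by symbol, and 13 of 13 had the reference position. Other lists used 15 sets, with up to 4 genes of each named by adjusted p, and 11 names were not matched. The members and lists were chosen with earlier results of these data known. Calculations used Python 3.11.15, pandas 2.3.3 and SciPy 1.17.1.

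Alternatives were other thresholds on p, a minimum mean count of 50 and a minimum log2 change of 0.5.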

Additional observations from a re-analysis of the deposited data

How the results depend on the processing

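The call of rpk held at an adjusted p under 0.1 and under 0.01, by a Bonferroni limit over 10775 tests, among genes of 50 or more mean counts, and with a log2 fold change of at least 0.5 in size. At an adjusted p under 0.1, Octbeta2R was added and the genes called higher numbered 1 in place of 0. The 11 positive and 2 negative listed genes were 7 and 1 at an unadjusted p under 0.05, 1 and 1 at an unadjusted p under 0.01, and 10 and 2 above a mean count of 50. An alternative chosen after seeing the data left out the 6 genes whose exons overlap those of another gene (rpk, nAChRalpha4, nAChRbeta3, GluRIIA, Octbeta2R and unc79), which left 7 positive and 0 negative genes, and 0 genes called lower by construction, since rpk is among them. Over the single genes 63 combinations of gene and threshold kept their side of the threshold, and 1, Octbeta2R at 0.1, did not. Most of the 63 were fixed in advance, so their number does not measure robustness. A gene not called at 0.05 cannot be called under a stricter limit or an added filter. Likewise rpk, called at 0.05, had to stay called at 0.1. No paired analysis was possible because the deposited values are 1 comparison per gene, with no columns per replicate, and for the same reason no replicate was left out and no other normalisation was tried. The fewer counts a gene had, the larger a change had to be to enter the table.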
